A study of Mus musculus with 24 samples.

Results

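Blood clotting and clot removal are run in part by the endothelium, and 9 genes of these systems were followed across primary mouse brain microvascular endothelial cells (MBMECs). They were taken by gene symbol: the procoagulant genes F3 and Vwf, the anticoagulant genes Tfpi, Thbd and Procr, and the plasminogen activation genes Plat, Plau, Plaur and Anxa2. All 9 were found among the 18091 genes of the wild-type table. The RNA came from wild-type C57B/6J mice in 5 groups of 4 libraries. The S1P4 receptor agonist CYM50260 was given at 500 nM on the apical or on the basal side, sphingosine-1-phosphate (S1P) at 50 nM on the apical or on the basal side, and vehicle was the control. All groups were treated for 24 h on transwell inserts, which separate the apical (blood) side of the cell layer from the basal (tissue) side, so that each side can be treated alone. Another 4 vehicle libraries came from mice labelled as global S1P4 knockout (KO) and stood in a table of their own. Each replicate was a pool of 12 mice, cells were selected for 48 h with puromycin, and 3 inserts made up a sample. In the study's own terms basal S1P opens the barrier of the cell layer, while the other 3 treatments tighten it.

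Clotting starts when tissue factor (F3) meets plasma factor VII, and von Willebrand factor (Vwf), stored in the Weibel-Palade bodies of endothelial cells, tethers platelets to a damaged wall. Tissue factor pathway inhibitor (Tfpi) blocks the tissue factor complex, while thrombomodulin (Thbd) and the endothelial protein C receptor (Procr) turn thrombin towards the activation of protein C. Clots are dissolved by plasmin, which tissue-type (Plat) and urokinase-type (Plau) plasminogen activators release from plasminogen. Plau does so on its receptor (Plaur), and annexin A2 (Anxa2) holds plasminogen and Plat on the cell surface. Brain endothelium is known for its Plat, and Plau and Plaur are also known for matrix breakdown around cells.

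The values are normalized counts, and each wild-type library held 4491592 to 4720877 of them, with 1009 to 1952 genes at 0. All 15 endothelial markers were present, and their sum was 24542 to 26308 in basal S1P libraries and 23594 to 26617 in vehicle libraries. Marker sums of pericytes and fibroblasts varied several-fold inside each group and mostly followed the replicate number. Xist, a non-coding RNA of female cells, showed which libraries stood apart. It was at 0 to 1 in all 5 libraries numbered 1 and between 173 and 2555 elsewhere, and 4 libraries had a level unlike the others of their number: apical agonist 2, apical S1P 3 and 4, and basal S1P 2. Apical agonist 2 was at 1382 and basal S1P 2 at 552, against 2251, 2507 and 2555 in the others numbered 2. Apical S1P 3 was at 525, against 1063 to 1608, and apical S1P 4 at 1417, against 173 to 244. The 4 were picked with no set cut-off. No source used here says which libraries share a pool of mice, so p-values here rest on library-to-library spread alone, except in fits with the replicate number as a block. Those fits compare libraries inside a number. Results that rest on the 4 libraries that stood apart are given with and without them.

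The promoters of 5 of the 9 genes could be read from RefSeq (GRCm38.p6), and 4 are printed here: those of Plaur, the member with the smallest p for basal S1P, of Procr and Anxa2, the members most alike across libraries, and of F3, the most variable member. Each runs 5′ to 3′ on the plus strand for up to 250 bases and ends at the annotated start of its gene. Capitals mark the AP-1 motif TGANTCA, which reads alike on both strands, and the GC box GGGCGG on either strand.
Plaur, chr7:24462233-24462482: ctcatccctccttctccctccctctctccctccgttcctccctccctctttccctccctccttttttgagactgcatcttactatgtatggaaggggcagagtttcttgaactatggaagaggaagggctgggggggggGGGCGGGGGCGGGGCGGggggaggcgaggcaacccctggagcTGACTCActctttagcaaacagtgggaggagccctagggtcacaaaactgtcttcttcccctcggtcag
Procr, chr2:155750967-155751116: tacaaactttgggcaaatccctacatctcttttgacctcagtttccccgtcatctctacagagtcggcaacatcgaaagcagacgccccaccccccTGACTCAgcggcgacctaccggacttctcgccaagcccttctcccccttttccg
Anxa2, chr9:69453433-69453619: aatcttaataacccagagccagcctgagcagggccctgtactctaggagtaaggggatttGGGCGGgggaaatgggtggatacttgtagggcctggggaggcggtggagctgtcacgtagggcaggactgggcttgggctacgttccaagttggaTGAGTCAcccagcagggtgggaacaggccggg
F3, chr3:121723287-121723536: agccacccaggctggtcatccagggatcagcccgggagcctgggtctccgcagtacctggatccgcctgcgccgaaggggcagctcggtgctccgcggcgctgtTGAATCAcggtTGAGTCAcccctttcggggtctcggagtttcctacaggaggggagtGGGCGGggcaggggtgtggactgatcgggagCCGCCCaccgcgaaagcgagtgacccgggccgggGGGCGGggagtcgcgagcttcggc
F3 held 2 AP-1 motifs, and Plaur, Procr and Anxa2 held 1 each. In Plaur 3 GC boxes lay upstream of it, each abutting or overlapping the next. Over the 250 bases before a RefSeq start, the AP-1 motif was in 4 of the 5 genes and not in Tfpi, against 6.75% of 32851 RefSeq promoters. The GC box was in 4 of the 5 genes, all but Procr, against 32.7% of promoters. These are matches of letters and no measurement of binding.

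Set per kilobase of exon, Thbd, Vwf and Procr were the highest members in wild-type vehicle libraries. On this scale Tfpi was the second lowest, and F3 was far below all others. Thbd led with 344 ± 19.4 normalized counts per kilobase (SD, n = 4), followed by Vwf with 333 ± 32.3, Procr with 317 ± 41.5, Plau with 301 ± 52.1 and Anxa2 with 258 ± 24.8. The ranges of neighbours overlapped throughout these 5 genes. Below them, with no overlap, came Plaur with 145 ± 27.8 and Plat with 111 ± 17.9, which overlapped each other. Tfpi with 81.1 ± 3.15 and F3 with 5.14 ± 4.44 stood each apart. Thbd and Vwf lay at percentiles 98.6 and 98.4 of the tested genes on this scale, and F3 lay at percentile 5.17.

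**Figure D1:**
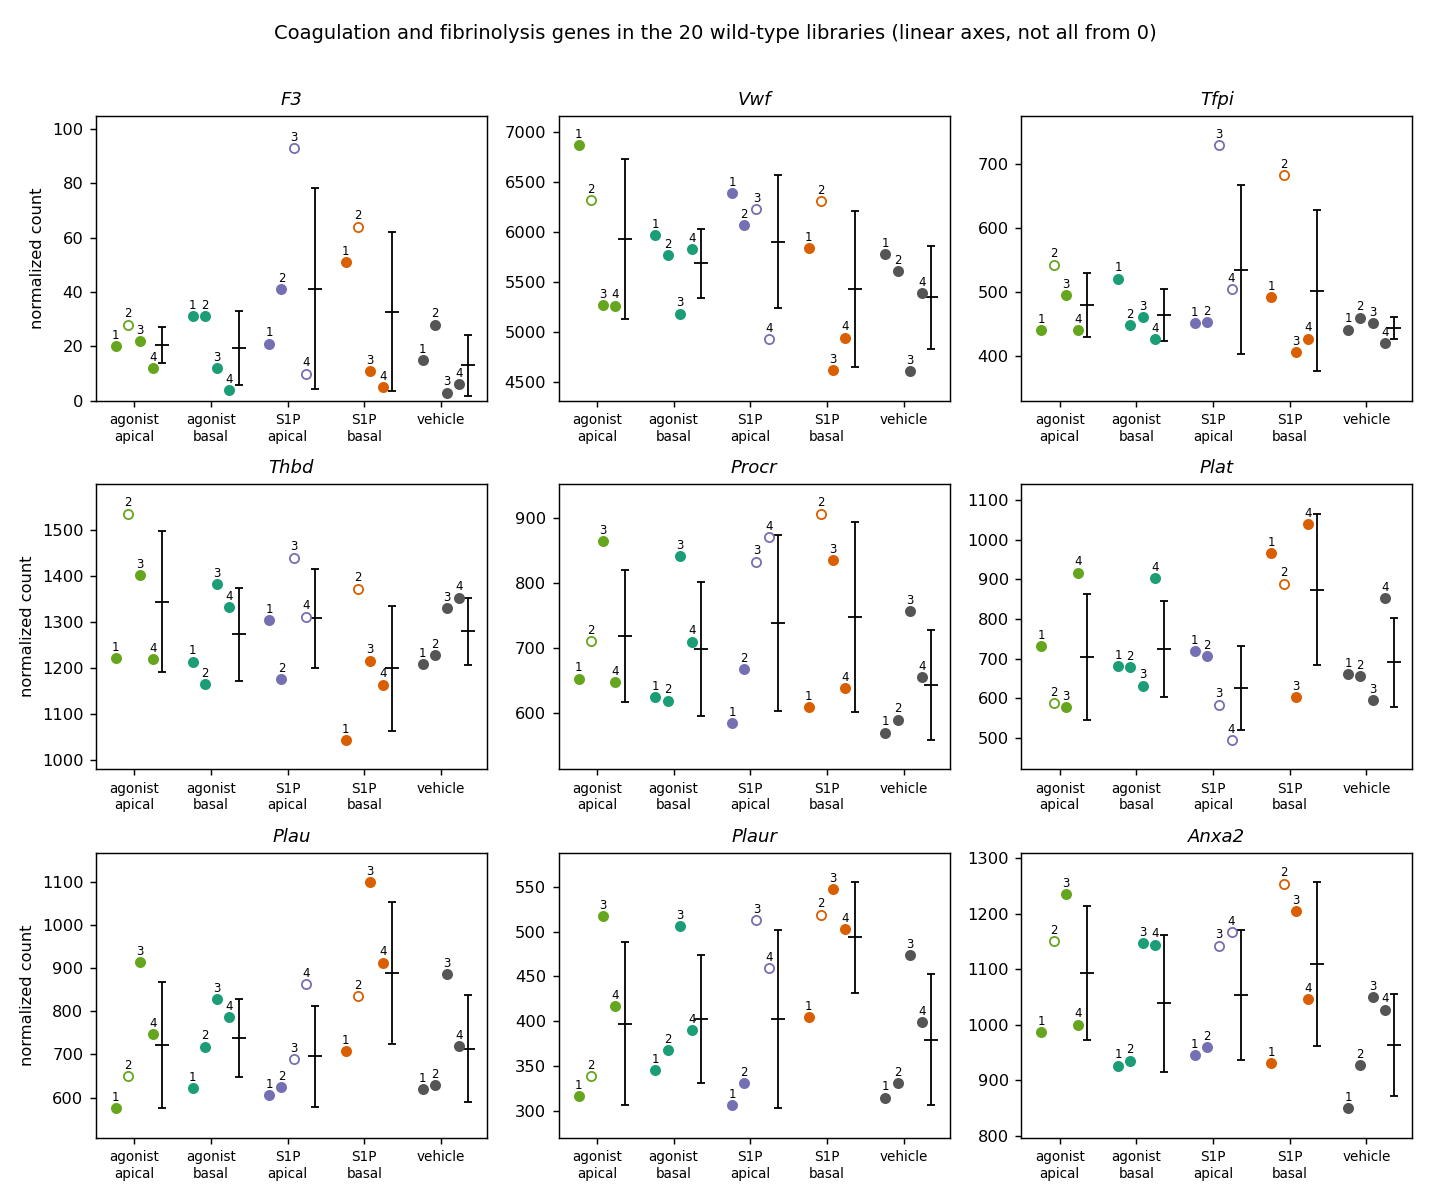
Normalized counts (vertical axes, linear) of the 9 genes in the 20 wild-type libraries. Points are libraries labelled by replicate number, open points are the 4 libraries whose Xist level was unlike their number, and black marks give the mean and SD of 4. For Plaur, Plau, Plat and Anxa2 every basal S1P library lay above the vehicle library of the same number, as in 13.3% of all genes tested. The groups of each gene overlapped.

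Of the procoagulant genes, F3 was near the bottom of the detectable range and scattered widely, and Vwf was steady. F3 (chromosome 3, 121723537 to 121735048, plus strand, mm10) was at 20, 28, 22 and 12 normalized counts in apical agonist libraries 1 to 4 and at 31, 31, 12 and 4 in basal agonist libraries. It was at 21, 41, 93 and 10 with apical S1P and at 51, 64, 11 and 5 with basal S1P, against 15, 28, 3 and 6 in vehicle libraries. The highest values belonged to apical S1P 3 and basal S1P 2, and all groups overlapped. On the log2(value + 1) scale used for all changes below, the F3 difference from vehicle was 1.55 ± 0.82 for apical S1P (SE, limma adjusted p = 1.00) and 1.06 ± 0.82 for basal S1P (adjusted p = 0.756). The interval for apical S1P, from -0.16 to 3.26, still holds both no change and a large one. Without the 4 libraries that stood apart, the differences were 1.51 ± 0.92 for apical S1P and 0.54 ± 0.82 for basal S1P.

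Marker sums of other vascular cells are given beside F3. The summed fibroblast markers (5 of 7 in the table) were at 668, 605, 148 and 104 in basal S1P libraries 1 to 4 and at 840, 746, 730 and 117 in apical S1P libraries, against 657, 831, 171 and 118 in vehicle libraries. Apical S1P 3, with the highest F3, thus had a fibroblast sum far above the other libraries numbered 3. The summed pericyte markers (10 of 10 in the table) were at 2519, 1789, 1162 and 345 with basal S1P and at 3062, 2430, 2047 and 1036 with apical S1P, against 3064, 2423, 1374 and 360 with vehicle. Basal S1P 2, with the second highest F3, was below vehicle 2 in both sums. The summed smooth muscle markers (7 of 7 in the table) were at 2009, 2516, 1521 and 997 with basal S1P and at 2204, 2044, 2405 and 1658 with apical S1P, against 2035, 1994, 1486 and 1067 with vehicle. Basal S1P 2 and apical S1P 3 had the highest smooth muscle sums of the 20 libraries. The part of such cells in the F3 values was not tested, and in bulk RNA fewer cells of a type and less RNA per cell cannot be told apart.

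**Figure D2:**
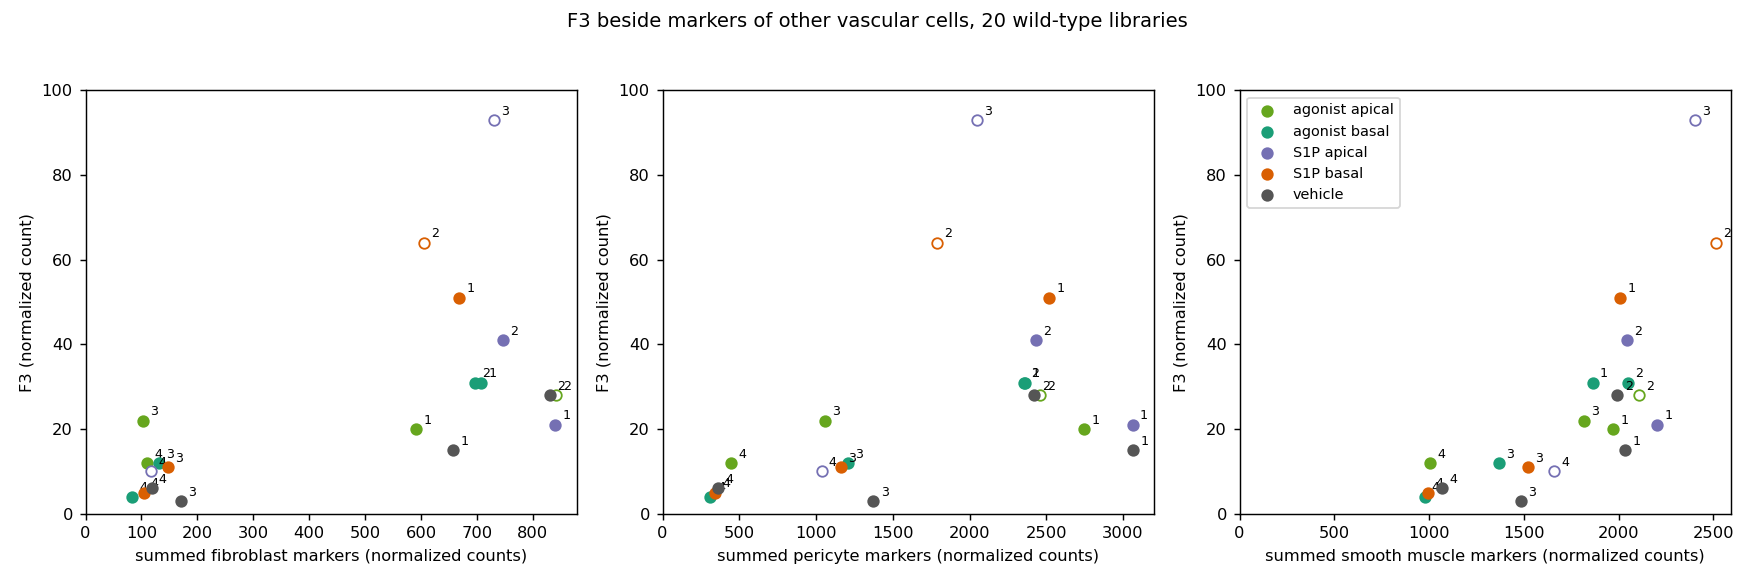
F3 (vertical axis, normalized count) against the summed fibroblast (left), pericyte (middle) and smooth muscle markers (right), all in normalized counts, for the 20 wild-type libraries labelled by replicate number; open points are the 4 libraries whose Xist was unlike their number. Libraries with F3 above 30 all had fibroblast sums of 605 or more, and the 2 with the highest F3 had smooth muscle sums of 2405 and 2516. The highest fibroblast sums were 841 in apical agonist 2, 840 in apical S1P 1 and 831 in vehicle 2. These libraries had F3 at 28, 21 and 28.

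Vwf (chromosome 6, 125546774 to 125686679, plus strand) had rank 3 among all genes in the wild-type table. It was at 6872, 6319, 5269 and 5265 normalized counts in apical agonist libraries and at 5972, 5769, 5185 and 5830 in basal agonist libraries. It was at 6388, 6073, 6233 and 4934 with apical S1P and at 5844, 6308, 4621 and 4947 with basal S1P, against 5782, 5614, 4609 and 5388 with vehicle. The groups overlapped, and the log2 differences from vehicle lay between 0.02 ± 0.11 (basal S1P) and 0.14 ± 0.11 (apical agonist). For basal S1P the interval was -0.22 to 0.25. The highest value of any gene was 266381 in the table of libraries labelled knockout against 8346 in the wild-type table, and the part of this difference between the tables in the Vwf values was not tested. Platelet RNA was close to absent: of 5 platelet markers Pf4 averaged 2.3 and Itga2b 17.4 normalized counts, and Ppbp, Gp9 and Gp1ba had no row.

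Over all libraries no anticoagulant gene was called against vehicle in any treatment, with log2 differences from -0.10 (Thbd, basal S1P) to 0.24 (Tfpi, apical S1P). Larger changes are not excluded: the 95% interval of Tfpi with apical S1P ran from -0.07 to 0.56. Thbd was called lower with basal S1P in a fit chosen after the data were seen, given below. Tfpi (chromosome 2, 84432855 to 84476775, minus strand) was at 440, 543, 495 and 440 with apical agonist and at 521, 448, 461 and 426 with basal agonist. It was at 451, 453, 730 and 505 with apical S1P and at 492, 683, 406 and 427 with basal S1P, against 441, 460, 451 and 420 with vehicle. Only apical S1P 3 and basal S1P 2 exceeded 600, and they were also the libraries with the highest F3. The log2 difference from vehicle was 0.24 ± 0.15 for apical S1P and 0.15 ± 0.15 for basal S1P, and without the 4 libraries that stood apart these became 0.03 ± 0.09 and -0.0083 ± 0.081.

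Thbd (chromosome 2, 148404466 to 148408188, minus strand) was at 1221, 1536, 1402 and 1219 with apical agonist, 1214, 1165, 1382 and 1332 with basal agonist, and 1304, 1176, 1440 and 1312 with apical S1P. It was at 1044, 1373, 1216 and 1164 with basal S1P, against 1208, 1228, 1330 and 1353 with vehicle. Basal S1P 1 was the lowest of all 20 libraries, and 3 of the 4 basal S1P libraries were below the vehicle library of the same number. The exception was basal S1P 2. Over all libraries the log2 difference for basal S1P was -0.10 ± 0.09 (adjusted p = 0.768).

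Procr (chromosome 2, 155751117 to 155755471, plus strand) was at 653, 711, 865 and 647 with apical agonist, 625, 619, 841 and 710 with basal agonist, and 585, 667, 833 and 871 with apical S1P. It was at 609, 907, 835 and 638 with basal S1P, against 570, 590, 757 and 655 with vehicle. Libraries numbered 3 were high in every group, at 757 to 865. The differences from vehicle, 0.12 ± 0.15 to 0.20 ± 0.15 on the log2 scale, were within the spread between libraries. Without the 4 libraries that stood apart, they were -0.03 ± 0.16 for apical S1P and 0.10 ± 0.15 for basal S1P.

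Among the plasminogen activation genes, Plaur and Plau were highest with basal S1P in every replicate number. The share of all genes with this trait was not counted. In all 4 numbers, 13.3% of all genes were higher with basal S1P than with vehicle, and 5.04% higher than with apical S1P. Apical agonist 2, basal S1P 2 and apical S1P 3 and 4 stood apart, so ranks within those numbers compare libraries with unlike Xist. Plaur (chromosome 7, 24462484 to 24475968, plus strand) was at 317, 339, 517 and 417 with apical agonist, 346, 368, 506 and 390 with basal agonist, and 307, 331, 513 and 459 with apical S1P. It was at 405, 519, 547 and 503 with basal S1P, against 315, 331, 474 and 399 with vehicle. Within every replicate number the basal S1P library was the highest of the 5. Number 3 was high in all groups, so the groups overlapped.

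Plau (chromosome 14, 20836660 to 20843385, plus strand) was at 575, 650, 915 and 748 with apical agonist, 622, 718, 828 and 787 with basal agonist, and 605, 625, 690 and 863 with apical S1P. It was at 708, 835, 1100 and 913 with basal S1P, against 620, 629, 886 and 719 with vehicle. As with Plaur, the basal S1P library was the highest of its number in all 4 numbers.

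Plat (chromosome 8, 22757727 to 22782844, plus strand) was at 731, 588, 578 and 917 with apical agonist, 681, 679, 632 and 903 with basal agonist, and 719, 706, 584 and 495 with apical S1P. It was at 966, 889, 602 and 1040 with basal S1P, against 660, 656, 595 and 853 with vehicle. Basal S1P was above vehicle in numbers 1, 2 and 4 by 0.29 to 0.55 on the log2 scale, and in number 3 by 0.02. The value of 495 in apical S1P 4, a library that stood apart, was the lowest of the 20.

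Anxa2 (chromosome 9, 69453620 to 69491795, plus strand) was at 986, 1150, 1235 and 1000 with apical agonist, 926, 935, 1147 and 1144 with basal agonist, and 945, 959, 1142 and 1167 with apical S1P. It was at 931, 1254, 1204 and 1046 with basal S1P, against 849, 927, 1049 and 1027 with vehicle. With basal S1P it was above vehicle in all 4 numbers, and the difference was largest in number 2. The log2 difference was 0.20 ± 0.11 over all libraries and 0.14 ± 0.11 without the 4 libraries that stood apart.

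**Figure D3:**
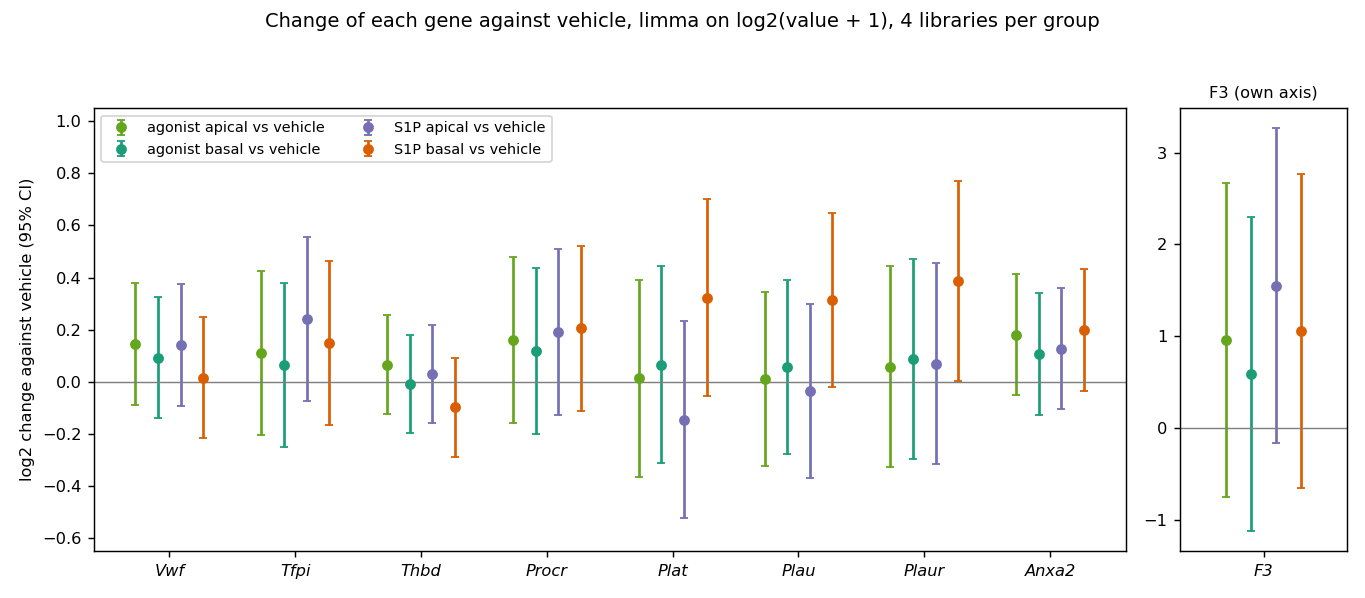
Log2 change of each gene against vehicle (vertical axis, points) with its 95% confidence interval (bars) from the limma fit, for the 4 treatments, n = 4 libraries per group; F3 has its own axis. For basal S1P, Plaur, Plat and Plau were at 0.39, 0.32 and 0.31, and Plaur was the only gene whose interval, 0.0022 to 0.77, did not include 0.

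Basal S1P against vehicle asks what the treatment that opens the barrier did to these genes. Averages were higher for the receptor Plaur, 494 ± 61.7 with basal S1P and 380 ± 72.6 with vehicle, for Plau, 889 ± 164 with basal S1P and 714 ± 123 with vehicle, and for Plat, 874 ± 192 with basal S1P and 691 ± 112 with vehicle (SD, n = 4 each). In log2 these differences were 0.39 ± 0.18, 0.31 ± 0.16 and 0.32 ± 0.18, and Procr and Anxa2 were at 0.20 ± 0.15 and 0.20 ± 0.11. Only the F3 difference given above was larger in size, with a much wider error. In limma over all 20 libraries 0 of the 9 genes passed an adjusted p under 0.05 (Plaur, Plau, Plat and Anxa2 all at 0.756), against 3 of 12249 genes (0.0245%), all lower. Plaur alone among the members stood at an unadjusted p under 0.05, against 5.22% of all genes tested. Plaur, Plau, Plat and Anxa2 were above the same-number vehicle in 4 of 4 numbers, against 13.3% of all genes. In number 2 the deviations from group means correlated at only 0.0291 over all genes, so the numbers were not taken as pairs. Of the 9 genes 8 had a positive difference, with a median of 0.20, against 50.0% of all genes tested. The groups overlapped for all 9, while 1.03% of all genes were higher and 1.08% lower without overlap.

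Once the libraries that stood apart were left out and replicate numbers were compared with themselves, Plaur, Plau and Plat were called higher and Thbd lower with basal S1P. This fit, chosen after the data were seen, omits the 4 libraries and has the replicate number as a block. The planned fit over all libraries called 0 of the 9 genes, and what libraries of a number share is not stated. The remaining same-numbered basal S1P and vehicle libraries deviated together from their group means over all genes, with correlations of 0.790, 0.674 and 0.731. The apical S1P libraries, which share the block and the error estimate, reached only 0.176 and 0.142 with vehicle and 0.163 with basal S1P. Plaur changed by 0.31 ± 0.05 (adjusted p = 0.00168), Plau by 0.30 ± 0.05 (adjusted p = 0.00185), Plat by 0.29 ± 0.07 (adjusted p = 0.0179) and Thbd by -0.20 ± 0.04 (adjusted p = 0.00876). That made 4 of the 9 genes called, 3 higher and 1 lower, against 518 of 12249 genes (4.23%), 1.87% higher and 2.36% lower. Vwf (-0.04 ± 0.05), Tfpi (-0.0029 ± 0.064), Procr (0.07 ± 0.05), Anxa2 (0.10 ± 0.05) and F3 (0.97 ± 0.40) did not pass. With the same libraries left out but no block, the sizes were close, 0.36 ± 0.18 for Plaur, 0.34 ± 0.17 for Plau, 0.30 ± 0.19 for Plat and -0.17 ± 0.08 for Thbd, and none passed (adjusted p = 0.998). The summed venous endothelial markers (6 of 6 in the table, none near 0) were at 3917, 3980, 3975 and 3917 with basal S1P, against 4411, 3947, 4314 and 4457 with vehicle. As with Thbd, basal S1P was below vehicle in numbers 1, 3 and 4, and the part of venous cells in these changes was not tested.

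The 4 calls differed in how they held without a further library. Plaur and Plau stayed called without any single basal S1P or vehicle library, with adjusted p of at most 0.0253 and 0.0177. The Plat change was 0.16 without basal S1P 1 (adjusted p = 0.162). It kept most of its size, at 0.29, 0.25 and 0.28, but did not pass without basal S1P 4 (0.0692), vehicle 1 (0.0734) or vehicle 4 (0.0665). Thbd stayed at -0.18 without basal S1P 1 (0.0537) and at -0.19 without vehicle 4 (0.0548), both just above the threshold. Fitted on basal S1P and vehicle libraries alone, Plau (0.0342) and Plaur (0.0411) were called, and Thbd (0.0914) and Plat (0.183) were not.

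**Figure D4:**
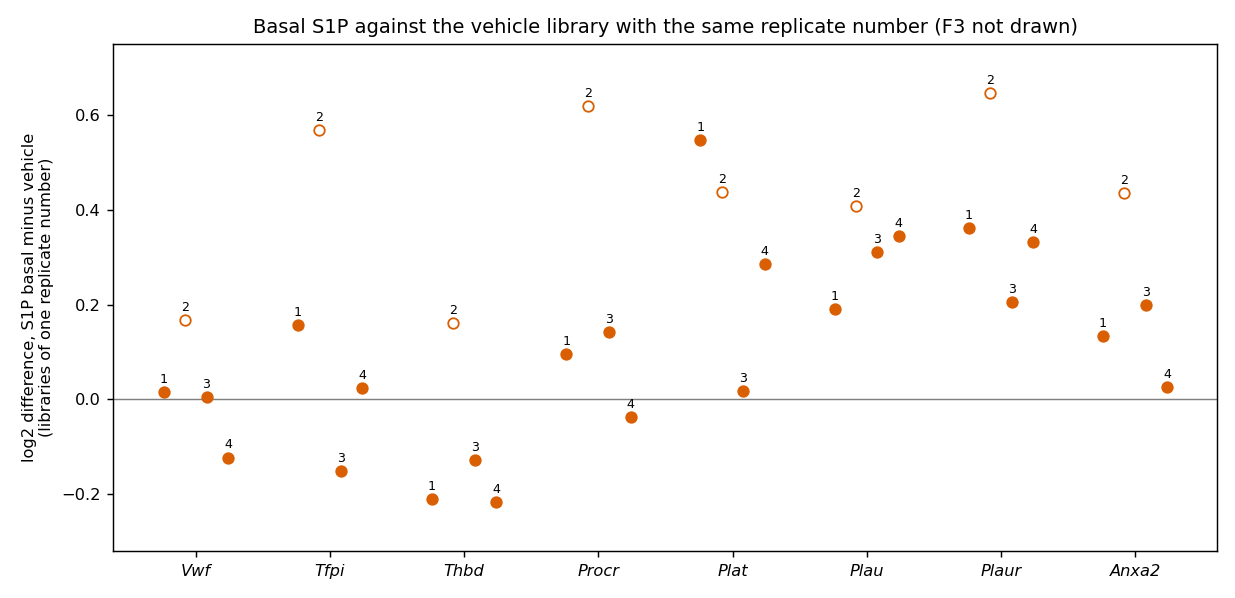
Log2 difference (vertical axis) between the basal S1P and the vehicle library of the same replicate number, labelled 1 to 4, for 8 genes; the open points are number 2, whose basal S1P library stood apart. Plau, from 0.19 to 0.41, and Plaur, from 0.21 to 0.65, lay above 0 in all 4 numbers. So did Plat, from 0.02 to 0.55, and Anxa2, from 0.03 to 0.44. Thbd lay below 0 in numbers 1, 3 and 4.

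Basal against apical S1P sets the same lipid on the 2 sides of the layer side by side. Plat averaged 874 ± 192 with basal and 626 ± 106 with apical S1P (SD, n = 4 each), a log2 difference of 0.47 ± 0.18. Plau differed by 0.35 ± 0.16 and Plaur by 0.32 ± 0.18, and all 3 were higher with basal S1P in 4 of 4 numbers, against 5.04% of all genes. Over all genes, same-numbered basal and apical S1P libraries correlated at -0.345 to 0.727 in their deviations from group means, so the numbers are not pairs. None of the 9 genes passed in limma (adjusted p = 0.999 for each), against 3 of 12249 genes (0.0245%), and at an unadjusted p under 0.05 stood Plat and Plau, against 4.01% of all genes. Without apical S1P 4 the Plat difference was 0.36, and without all the libraries that stood apart it was 0.25 ± 0.23. With those left out, and 2 apical libraries remaining, Plau and Plaur differed by 0.54 ± 0.21 and 0.59 ± 0.21 (limma adjusted p = 0.701 for both). The apical libraries left were numbers 1 and 2, the basal ones numbers 1, 3 and 4. Median Plaur by number was 317, 339, 513 and 417, and median Plau 620, 650, 886 and 787, so number and side cannot be told apart here. Against the 3 other treatments together, 0 of the 9 genes passed, against 6 genes in all (0.049%), and Plat (0.34 ± 0.15), Plau (0.30 ± 0.13) and Plaur (0.32 ± 0.15) were the 3 with an unadjusted p under 0.05, against 5.63% of all genes.

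With apical S1P and with the S1P4 agonist none of these genes passed the test. For apical S1P the largest differences from vehicle were those of F3 and Tfpi given above. F3 was also the member with the largest agonist difference, 0.95 ± 0.82 for apical and 0.59 ± 0.82 for basal agonist. With apical S1P, Plau (-0.04 ± 0.16), Plaur (0.07 ± 0.18) and Plat (-0.15 ± 0.18) lay closer to 0. For apical agonist Plaur was at 0.06 ± 0.18, Plau at 0.01 ± 0.16 and Plat at 0.01 ± 0.18, and for basal agonist they were at 0.09 ± 0.18, 0.06 ± 0.16 and 0.07 ± 0.18. In limma each of these 3 treatments gave 0 calls among the 9 genes and 0 in the whole table (0.0%). At an unadjusted p under 0.05 stood 0 of the 9 genes, against 1.09% of all genes for apical agonist, 0.31% for basal agonist and 0.996% for apical S1P. The difference was positive for 9, 8 and 7 of the 9 genes, with medians of 0.11, 0.09 and 0.13. All genes tested were positive in 48.5%, 52.5% and 49.8%, and the 3 comparisons share the vehicle libraries. Basal against apical agonist gave 0 calls among the 9 genes and in the whole table (0.0%), and differences from -0.36 (F3) to 0.05 (Plat). The 95% intervals of the agonist changes of Plaur reached 0.47 and those of Plau 0.39, so they also hold changes of the size seen with basal S1P. A limma F test over the 5 groups called none of these genes (adjusted p = 1.00 for each), against 3 genes in all (0.0245%), and none stood at an unadjusted p under 0.05, against 212 genes in all (1.73%).

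**Figure D5:**
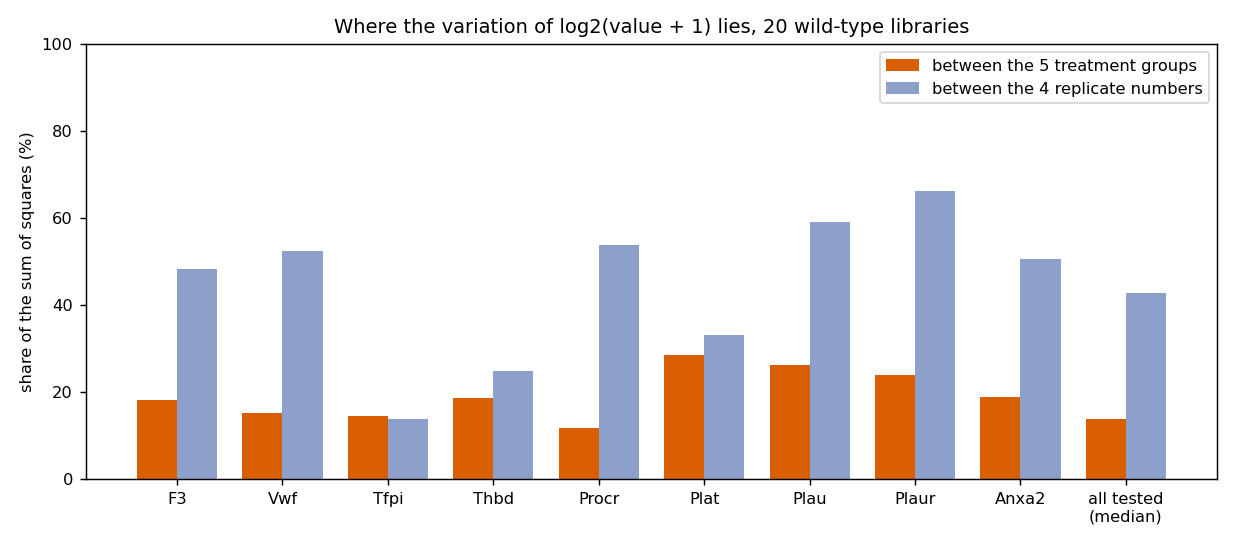
Share of the sum of squares of log2(value + 1) over 20 wild-type libraries (vertical axis, %) that lay between the 5 treatment groups and between the 4 replicate numbers, for each gene and as the median of all tested genes. Plat, Plau and Plaur had 28.7%, 26.3% and 23.9% between groups, against a median of 13.9%. In the limma F test over the groups they had an unadjusted p of 0.174, 0.224 and 0.278.

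The replicate number carried more of the variation than the treatment in 8 of the 9 genes. For Plaur 66.3% of the sum of squares lay between numbers and 23.9% between groups, for Plau 59.1% and 26.3%, and for Plat 33.1% and 28.7%. Tfpi was the exception with 13.9% and 14.5%. The medians over all tested genes were 42.9% and 13.9%, the same direction as in those 8 members. The share of all genes with this direction was not counted.

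Other genes of clotting and clot removal were read from 7 lists of 62 genes, of which 39 had a row and 36 were tested. With basal S1P 16 of the 36 had a positive and 20 a negative difference from vehicle, with a median of -0.01, and limma called 0, with 4 at an unadjusted p under 0.05. The smallest p belonged to Nos3, the endothelial nitric oxide synthase, at 0.19 ± 0.06, and to Hs3st1, which makes antithrombin-binding heparan sulfate, at -0.29 ± 0.10 (limma adjusted p = 0.756 for both). Nos3 was at 2014, 1896, 2055 and 2266 with basal S1P, against 1777, 1770, 1746 and 1919 with vehicle, and only basal S1P 2 was within the vehicle range. Hs3st1 was at 349, 380, 254 and 296 with basal S1P, against 391, 363, 400 and 395 with vehicle.

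In the fit without the 4 libraries and with the block, 6 of the 36 were called, 3 higher and 3 lower, against 4.23% of all genes tested. Higher were Nos3 (0.21 ± 0.04), Nt5e, which forms adenosine (0.69 ± 0.10), and the thrombin receptor F2rl3 (0.36 ± 0.09). Lower were the Weibel-Palade body adhesion molecule Selp (-1.07 ± 0.12), Hs3st1 (-0.41 ± 0.07) and Entpd1, which breaks down ATP and ADP (-0.19 ± 0.05). Selp was at 130, 53, 35 and 47 with basal S1P, against 230, 139, 75 and 126 with vehicle, below it in every number. Vwf, the cargo that shares its storage body, did not pass in the same fit.

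In the other comparisons limma called 0 of the 36 genes, and the 2 with the smallest p were as follows. With apical agonist they were Gas6, a vitamin K-dependent ligand of receptor tyrosine kinases (0.14 ± 0.06), and Hs3st1 (0.19 ± 0.10), and with basal agonist Nos3 (0.10 ± 0.06) and Mmrn1, a multimerin that binds factor V (-0.25 ± 0.22). With apical S1P they were Mmrn1 (-0.45 ± 0.22) and the flow-responsive regulator Klf2 (-0.54 ± 0.31). Basal against apical S1P gave Gas6 (-0.21 ± 0.06) and Hs3st1 (-0.33 ± 0.10), and basal against apical agonist the same pair at -0.10 ± 0.06 and -0.14 ± 0.10. Against the 3 other treatments together, Hs3st1 (-0.39 ± 0.08) reached an adjusted p of 0.0990 and Gas6 (-0.21 ± 0.05) one of 0.140.

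Across the 20 libraries, which share 4 replicate numbers and 5 treatments, the genes most like each member are named as a description. Plau and Plaur varied together (Pearson r = 0.883), as did Procr and Anxa2 (r = 0.923), while Vwf and Plau ran opposite to each other (r = -0.800). Most like Plau were Srxn1 (r = 0.962), Rhou and Plekho2, and most like Plaur were Slc35b1 (r = 0.963), Kctd5 and Ch25h. Plat was most like Slc38a3 (r = 0.888), Klf10 and Ly6c1. Procr was most like Fkbp8 (r = 0.984), Taldo1 and Ppp1ca, and Anxa2 most like Aldoa (r = 0.989), Eif4a1 and Capzb. Thbd was nearest to Rnd3 (r = 0.916), Crim1 and Yipf4, and Tfpi to Tmem50b (r = 0.923), M6pr and Slco1a5. Vwf was nearest to Lrp5 (r = 0.945), Gsta4 and Entpd1, and F3 to Moxd1 (r = 0.919), Ptprz1 and the collagen gene Col12a1 (r = 0.878).

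In the vehicle libraries labelled global S1P4 knockout the targeted gene itself, S1pr4, was not absent: it was at 250, 261, 349 and 260 normalized counts, against 128, 130, 189 and 153 in wild-type vehicle libraries. The values come from separately normalized tables and are not tested against each other. The labels do not say which part of the gene was deleted, so these levels, which go against the label as it reads, do not settle the genotype. All 9 clotting and clot removal genes had values. Plau was at 2311, 2117, 1795 and 2513, Plaur at 1357, 1175, 1276 and 1287 and Plat at 4433, 4468, 3506 and 2634. Thbd was at 4735, 4806, 5646 and 7900, Procr at 4197, 3905, 4397 and 4029 and Tfpi at 1154, 1019, 1348 and 971. Vwf was at 90488, 87563, 88122 and 40904, Anxa2 at 18573, 17294, 20782 and 22488 and F3 at 66, 58, 70 and 24. Scaled to equal library totals, the ratio of labelled knockout over wild-type vehicle libraries for genes in general rose with their level, with a median log2 of -1.39 for genes below 100 in wild-type vehicle, -0.90 from 100 to 1000 and -0.14 from 1000 up, so a gene's own ratio cannot be told apart from its level.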

How the data were processed

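Poly(A) RNA of 24 libraries was sequenced, and the 20 wild-type libraries carry the comparisons. Per the submitters' processing notes, the tools were STAR 2.7.3a, featureCounts 1.6.5 (Subread), DESeq2 1.26.0, Trimmomatic 0.38 and FastQC on mm10, in no stated order. How strand and duplicates were treated is not given in the sources used. The authors deposited a signal per gene in whole numbers, called normalized counts here, and how they were normalized is not stated beyond those tools. Reads were not recovered, so no count model and no counting interval could be used. Column headers with SP1 and CYM were read as S1P and CYM50260.

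Genes with a mean of at least 10 over the 20 libraries (12249, all 9 members included) were fitted as log2(value + 1). The fit used limma 3.58.1 (R 4.3.3), as group means with a trended prior, and was tested on simulated data first. The simulated libraries had independent noise and no effect of the replicate number. They therefore do not test calls where same-numbered libraries are alike, nor the fit without the 4 libraries. Adjustment was by Benjamini-Hochberg across the tested genes, with calls under 0.05. The log2(value + 1) scale understates changes of low genes. Named are the 9 members, pathway genes called or with the 2 smallest p per comparison, and the 3 genes of highest Pearson r with each member. Pathway genes called in the added fit were chosen after their values were seen. Members, lists and tests were chosen with earlier results of these data known.

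Same-numbered libraries deviated together, with correlations from 0.375 to 0.777 over all genes, for both agonist groups and apical S1P against vehicle and between the agonist groups. There the block changed no call. For basal S1P number 2 reached 0.0291 against vehicle, so over all libraries the numbers were not taken as pairs. Alternatives were 2 pseudocounts, 2 filters, 2 scalings, fewer libraries and the replicate block. No test was made between the wild-type table and that of the libraries labelled knockout.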

Additional observations from a re-analysis of the deposited data

Results flagged for a closer look

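Among 54 groups of 4 libraries (9 genes in 6 groups), 1 held a library far from the rest: Vwf in the vehicle libraries labelled knockout, with 40904 normalized counts in replicate 4 against 87563 to 90488 in the other 3. The gap was 0.941 of the group's range, above Dixon's 95% critical value, which chance passes in about 1 of 20 groups. No comparison uses this library.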

How the results depend on the processing

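With pseudocounts of 0.5 or 10, a mean filter of 50 or none, median-of-ratios or upper-quartile scaling, only the compared groups, or without any 1 library (0 to 0), no member was called in any comparison. With the replicate block over all libraries 1 member was called for basal S1P against vehicle (Plaur, adjusted p = 0.0393) and 2 (Plau and Plaur, adjusted p = 0.0259 and 0.019) against the other treatments. Correlations of same-numbered libraries were as low as -0.345 there, so the numbers were not taken as pairs. With the block and without the 4 libraries that stood apart, 4 members were called for basal S1P against vehicle, 4 against the other treatments, 3 against apical S1P and 3 in the F test. In that fit same-numbered apical S1P libraries correlated at only 0.176 and 0.142 with vehicle and at 0.163 with basal S1P. Genes called in all under the block numbered 47, 83 (basal against apical S1P), 137 (against the others) and 18 (F test), and 518, 271, 669 and 343 also without the 4 libraries, against 3, 3, 6 and 3. The block changed no other call.

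Signs turned only for uncalled differences (log2). Without the 4 libraries: apical agonist, Thbd -0.000379; apical S1P, Thbd -0.046, Procr -0.033, Plat 0.057, Plaur -0.23 and Anxa2 -0.011; basal S1P, Vwf -0.060 and Tfpi -0.0083; basal against apical agonist, Tfpi 0.016, Plat -0.024 and Plaur -0.038; basal S1P against the others, F3 -0.42 and Tfpi -0.055. With the block too: Thbd -0.038 (apical agonist); Tfpi -0.0076, Plat 0.076 and Plaur -0.039 (apical S1P); Vwf -0.042 and Tfpi -0.0029 (basal S1P); F3 0.42, Tfpi 0.00475, Procr -0.027 and Anxa2 -0.0054 (basal against apical S1P); Tfpi 0.010, Thbd 0.029 and Plat -0.0055 (basal against apical agonist); Tfpi -0.039, Procr -0.044 and Anxa2 -0.0088 (against the others). Without apical S1P 3 and basal S1P 2: Thbd -0.018 and Plaur -0.058 (apical S1P), Vwf -0.060 and Tfpi -0.0083 (basal S1P), Procr -0.022 (basal against apical S1P), and F3 -0.31, Tfpi -0.094 and Procr -0.030 (against the others). The cause was not tested.

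Leaving out 1 library turned signs within these ranges. Apical agonist: Thbd -0.000379 to 0.11, Plat -0.12 to 0.12, Plau -0.11 to 0.12, Plaur -0.077 to 0.17. Basal agonist: Thbd -0.050 to 0.033, Plat -0.045 to 0.17, Plau -0.0054 to 0.17, Plaur -0.028 to 0.20. Apical S1P: Thbd -0.018 to 0.079, Plau -0.14 to 0.074, Plaur -0.058 to 0.19. Basal S1P: Vwf -0.060 to 0.090, Tfpi -0.0083 to 0.24. Basal against apical S1P: F3 -1.01 to 0.14, Tfpi -0.25 to 0.067, Procr -0.092 to 0.10. Basal against apical agonist: F3 -0.69 to 0.20, Vwf -0.11 to 0.021, Tfpi -0.10 to 0.016, Procr -0.14 to 0.050, Plat -0.058 to 0.19, Plau -0.056 to 0.17, Plaur -0.086 to 0.16. Basal S1P against the others: F3 -0.49 to 0.66, Tfpi -0.15 to 0.10, Procr -0.051 to 0.14, Anxa2 -0.0020 to 0.14. For F3, at 3 to 93 normalized counts, no counting error can be given, since depth is unknown.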
